A study of Mus musculus with 2 samples.

Results

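Notch signaling passes between touching cells. A ligand of the Delta-like or Jagged family on the surface of one cell binds a NOTCH receptor on its neighbour, the receptor is cut, and its released inner part enters the nucleus and joins the DNA-binding protein RBPJ to switch on repressors of the Hes and Hey families. Fringe enzymes add sugars to the receptors and thereby change which ligands they answer to. In the embryonic cortex this exchange is known for keeping apical radial glial cells (RGCs) as progenitors, while cells turning towards intermediate progenitors (IPCs) and neurons carry the ligands. The values below concern 10 genes of this pathway out of the 32285 genes listed in the deposited tables, chosen by symbol: the receptors *Notch1* and *Notch2*, the ligands *Dll1*, *Dll3* and *Jag1*, the transcriptional repressors *Hes1*, *Hes5* and *Hey1*, and the Fringe genes *Mfng* and *Lfng*.

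The data are single-cell RNA-sequencing counts from the dissociated dorsal telencephalon of mouse embryos at embryonic day 14.5. Both libraries carry the label WT and a title naming the EoMltt3 line, which the series text writes as EomesMllt3 and describes as control embryos of an Eomes-Cre line. No agent was given, both have the same genotype label, and there is no treated or mutant group, so the comparisons are between cell classes within the 2 libraries, called replicate 1 and replicate 3 after the last digit of their titles. The study's methods give C57BL/6J mice for this experiment, and the labels name the tissue brain hemispheres. An embryo number is stated for the experiment as a whole, but not how many embryos each library holds or whether they shared a litter, so a p-value measures only the spread between these 2 libraries.

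Replicate 1 held 6163 barcodes with 64182006 unique molecular identifiers (UMIs, each marking 1 captured RNA molecule) and replicate 3 held 8870 barcodes with 93295807 UMIs. After filtering, 5149 and 6854 cells remained, in 24 clusters. The libraries shared 23 barcodes. The named classes rest on markers. A marker was on where its log2 level lay above 0.5 of its range over clusters and at least 10% of cells held it. All 10 RGC markers and all 8 IPC markers were on in the clusters that bear those names. So were 6 to 7 of the 7 newborn neuron markers and all 8 projection neuron markers. Markers of neighbouring classes were on there too. RGC-like clusters had from 2 (cluster 8) to 7 (cluster 12) IPC markers on. A marker that was not on could still have UMIs, and no IPC marker was at 0 in RGC-like cells of either replicate. IPC-like clusters 7 and 14 had 6 and 7 newborn neuron markers on, and 6 and 3 RGC markers. Newborn neuron-like cluster 16 had 7 IPC markers on. Newborn neuron-like clusters 2 and 3 each had 7 projection neuron markers on, and clusters 9 and 16 each had 6. Projection neuron-like clusters 5 and 6 had 5 and 6 newborn neuron markers on, and clusters 1 and 11 had 1 and 2. RGC-like cells numbered 757 in replicate 1 and 1714 in replicate 3, IPC-like cells 430 and 707, newborn neuron-like cells 1284 and 1727, and projection neuron-like cells 1610 and 1768. Clusters 12 (RGC-like) and 16 (newborn neuron-like) came mostly from replicate 3 and cluster 9 (newborn neuron-like) mostly from replicate 1. The 10 genes and 55 further pathway genes were kept out of the genes that built the clusters, but other genes of the same cells built them. Levels are given as CPM, the UMIs of a gene scaled to a fixed total of UMIs per class and library. UMIs at the 3′ end are not scaled by gene length, so levels are compared between classes for a single gene and not between genes.

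Promoter sequence is shown for 3 genes that went opposite ways in the first step of the axis described below: *Hes5* and *Lfng*, which were highest in RGC-like cells, and *Dll1*, which was highest in IPC-like cells. RefSeq (GRCm38.p6, the assembly also called mm10) had promoter entries for 7 of the 10 genes, and *Hes1*, *Hey1* and *Mfng* had none. The 250 bases before each transcript start were searched on both strands for TGGGAA, the core that RBPJ binds, for CAGCTG, an E box of the kind that proneural basic helix-loop-helix factors bind, and for CACNAG, the N box that Hes proteins bind. Capitals mark only the TGGGAA matches of *Hes5* and *Lfng* and the CAGCTG match of *Dll1*, and other matches stay in lower case. Each sequence reads 5′ to 3′ along the gene, and TTCCCA is TGGGAA on the other strand. *Hes5* (ENSMUSG00000048001, chr4:154960626-154962372, plus strand) held TGGGAA 2 times, 226 and 82 bases before the start of the transcript used, and its listed gene span begins upstream of that start.
Hes5, chr4:154960685-154960714: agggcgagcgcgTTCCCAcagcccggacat
Hes5, chr4:154960829-154960858: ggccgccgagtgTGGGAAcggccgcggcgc
*Lfng* (ENSMUSG00000029570, chr5:140607341-140615545, plus strand) also held TGGGAA 2 times, 135 and 108 bases before its start, within the stretch from 250 to 51 bases upstream.
Lfng, chr5:140607091-140607290: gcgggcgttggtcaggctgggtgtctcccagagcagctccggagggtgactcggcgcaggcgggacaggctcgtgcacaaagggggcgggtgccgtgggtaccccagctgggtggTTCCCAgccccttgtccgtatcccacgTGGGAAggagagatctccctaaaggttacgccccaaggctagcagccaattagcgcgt
A second *Dll1* entry, at chr17:15375824-15376073, held no match. *Dll1* (ENSMUSG00000014773, chr17:15367354-15376932, minus strand) held CAGCTG once, 132 bases before the start of its outermost transcript.
Dll1, chr17:15376933-15377182: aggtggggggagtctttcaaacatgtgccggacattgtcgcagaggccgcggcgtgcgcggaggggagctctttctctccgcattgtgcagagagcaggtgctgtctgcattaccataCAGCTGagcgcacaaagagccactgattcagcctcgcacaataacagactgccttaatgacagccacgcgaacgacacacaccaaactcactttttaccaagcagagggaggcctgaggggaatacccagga
Of 32851 promoter windows of the same length, 21.6% held TGGGAA, 13.0% held CAGCTG and 36.7% held CACNAG. Among the 7 genes with an entry, TGGGAA was found in *Hes5* and *Lfng*, CAGCTG in *Dll1*, *Dll3*, *Jag1* and *Lfng*, and CACNAG in *Notch1*, *Notch2* and *Lfng*, and no matches overlapped. A match describes the letters of the window and is not a measured binding site.

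Of the 10 genes, 7 had their highest level along the axis from RGC-like to projection neuron-like cells in the RGC-like class, and *Dll1*, *Dll3* and *Mfng* had theirs in the IPC-like class. This held in both libraries, as the plot of levels along the axis shows.

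**Figure D1:**
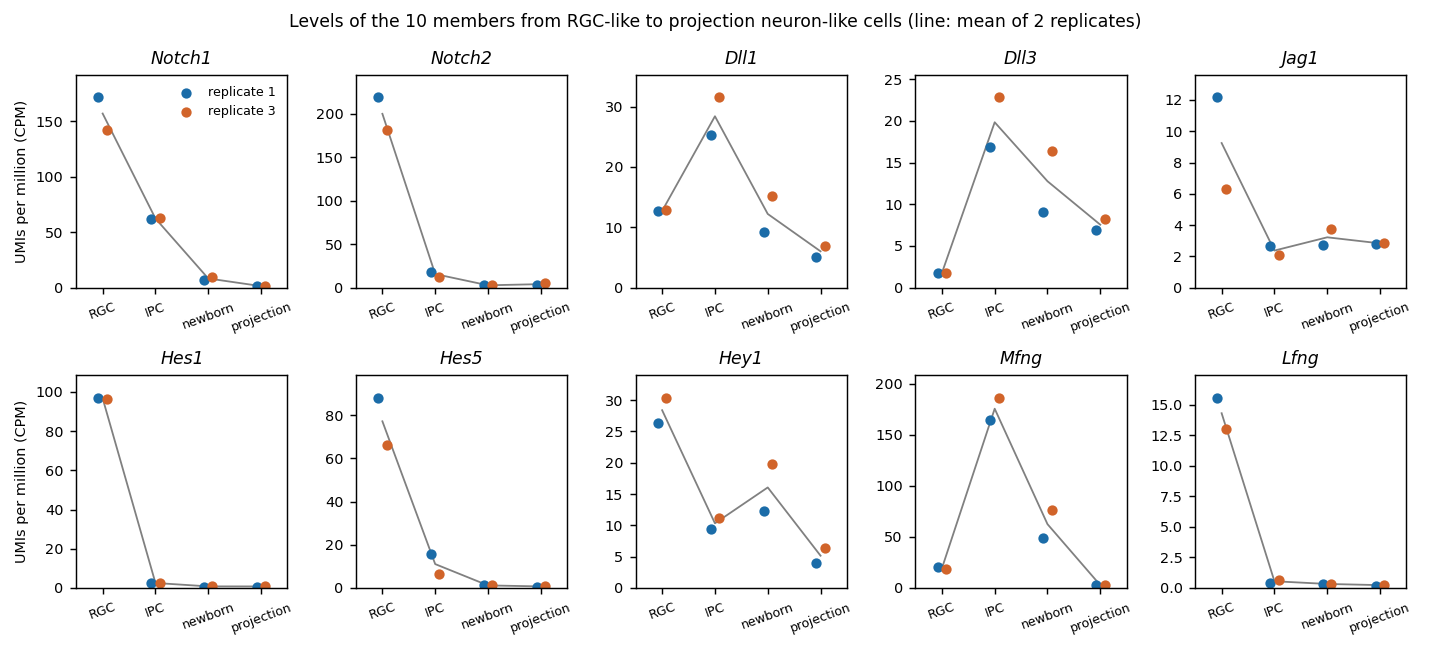
Level of each of the 10 genes in CPM (vertical axis, linear, from 0) in the 4 classes from RGC-like to projection neuron-like cells, with 1 point per replicate and a line through the mean of 2. *Notch1*, *Notch2*, *Jag1*, *Hes1*, *Hes5*, *Hey1* and *Lfng* are highest in RGC-like cells, and *Dll1*, *Dll3* and *Mfng* in IPC-like cells.

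The step from RGC-like to IPC-like cells moved every one of the 10 genes past the threshold: 3 were higher and 7 were lower in IPC-like cells (edgeR quasi-likelihood test, Benjamini-Hochberg adjusted over 15786 genes). For comparison, 17.5% of all genes tested were called higher and 17.9% lower in that step. The median log2 fold change of the 10 genes was -1.59, beside -0.01 over all genes tested. The values of the 2 classes did not overlap for any of the 10 genes, which carries little weight with 2 values per class. The share of all genes without overlap was not worked out. The size of the change depended on the cells entered and on how they were classed. With predicted doublets kept, cells were clustered and named anew. A cluster of 1142 cells whose best match was newborn neuron was then left unnamed. In that setting *Hes1* was at -2.99 in place of -5.08, *Lfng* at -2.95 in place of -4.24, *Notch2* at -2.56 in place of -3.60 and *Hes5* at -1.83 in place of -2.76. *Jag1* was at -0.94 in place of -1.81, *Dll3* at 2.53 in place of 3.48 and *Dll1* at 2.57 in place of 1.24.

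Both receptors were far higher in RGC-like cells, and they fell at different points of the axis. *Notch1* (ENSMUSG00000026923, chr2:26457902-26503822) was at 171.8 CPM in replicate 1 and 142.6 in replicate 3 in RGC-like cells, at 62.3 and 62.6 in IPC-like cells, at 6.64 and 9.99 in newborn neuron-like cells and at 1.29 and 1.52 in projection neuron-like cells. Its level therefore dropped at every step, with log2 fold changes of -1.25 (SE 0.16, adjusted p = 0.00103), -2.78 (SE 0.19, adjusted p = 3.32e-05) and -2.39 (SE 0.23, adjusted p = 0.000445), the last of which was -0.22 and not called with predicted doublets kept. *Notch2* (ENSMUSG00000027878, chr3:98013538-98150367) was at 219.0 and 181.2 CPM among RGC-like cells and had already dropped to 18.5 and 12.9 in IPC-like cells, or -3.60 on the log2 scale (SE 0.23, adjusted p = 4.06e-05). It stood at 2.93 and 2.57 CPM in newborn neuron-like cells and at 3.1 and 5.06 in projection neuron-like cells. Those last 2 classes did not differ past the threshold for *Notch2* (log2 fold change 0.65, SE 0.27, adjusted p = 0.128).

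Of the ligand genes, *Dll1* and *Dll3* rose into IPC-like cells while *Jag1* fell. *Dll1*, a ligand that activates NOTCH in neighbouring cells, was at 12.7 CPM in replicate 1 and 12.8 in replicate 3 in RGC-like cells, at 25.3 and 31.5 in IPC-like cells, at 9.19 and 15.2 in newborn neuron-like cells and at 5.15 and 6.90 in projection neuron-like cells. Its gain in IPC-like cells was 1.24 on the log2 scale (SE 0.25, adjusted p = 0.0072), and it fell after that by 1.11 (SE 0.25, adjusted p = 0.0111) and then by 0.92 (SE 0.25, adjusted p = 0.0335) on the log2 scale. The first of these falls was not called with a stricter filter on cells (-0.36), and the RGC-like and newborn neuron-like levels of *Dll1* overlapped between replicates. *Dll3* (ENSMUSG00000003436, chr7:28293555-28301785), a Delta-like protein that acts mainly inside its own cell, was low in RGC-like cells at 1.75 and 1.77 CPM and reached 16.8 and 22.8 in IPC-like cells. On the log2 scale this gain was 3.48 (SE 0.33, adjusted p = 0.000242). Newborn neuron-like cells held *Dll3* at 9.11 and 16.4 CPM and projection neuron-like cells at 6.86 and 8.24.

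Neither later step of *Dll3* passed the threshold (log2 fold changes -0.54, adjusted p = 0.177, and -0.66, adjusted p = 0.122), but both did with the replicate as a block (adjusted p = 0.0469 and 0.0319). Across the whole axis *Dll3* was the only one of the 10 genes that was higher in projection neuron-like than in RGC-like cells, by 2.27 on the log2 scale (SE 0.33, adjusted p = 0.000489). *Jag1* (ENSMUSG00000027276, chr2:137081451-137116520), a Jagged ligand, was low throughout: RGC-like cells held it at 12.2 and 6.33 CPM, IPC-like cells at 2.67 and 2.07, newborn neuron-like cells at 2.70 and 3.74 and projection neuron-like cells at 2.81 and 2.85. It fell from RGC-like to IPC-like cells by 1.81 on the log2 scale (SE 0.38, adjusted p = 0.00857), and this call was lost with predicted doublets kept. Neither later step of *Jag1* passed the threshold (adjusted p = 0.33 and 0.87).

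*Hes1* and *Hes5*, the main NOTCH-induced repressors of neuronal differentiation, fell from RGC-like to IPC-like cells, and *Hes1* fell by the most of the 10 in that step. *Hes1* (ENSMUSG00000022528, chr16:30065357-30067796) was at 97.0 and 96.3 CPM among RGC-like cells and 2.47 and 2.63 in IPC-like cells, or -5.08 on the log2 scale (SE 0.16, adjusted p = 4.83e-06). The IPC-like level rests on 12 and 19 UMIs and lay between the 3.01 and 1.87 CPM of red blood cell-like cells, which should lack the gene. Those values come from 1 UMI each, so they set no firm background. Newborn neuron-like cells, at 0.695 and 0.935 CPM from 9 and 16 UMIs, were called lower still (log2 fold change -1.40, SE 0.23, adjusted p = 0.00255). Both levels rest on few UMIs, and whether the IPC-like level is expression or background was not tested. This fold change was -3.77 with predicted doublets kept and -0.77, not called, with the stricter filter on cells. Projection neuron-like cells, at 0.667 and 0.920 CPM, differed from newborn neuron-like cells by 0.03 (SE 0.21, adjusted p = 0.963). *Hes5*, whose promoter windows are printed above, was at 88.1 and 66.2 CPM among RGC-like cells and 15.6 and 6.5 in IPC-like cells (log2 fold change -2.76, SE 0.32, adjusted p = 0.000587). Its IPC-like values differed between replicates by more than those of *Hes1*, and it then fell to 1.16 and 1.23 CPM in newborn neuron-like cells (log2 fold change -2.92, SE 0.43, adjusted p = 0.00151). The gene *Gm20421* overlaps *Hes5* and held 1 UMI in all cells, beside 2780 for *Hes5*.

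*Hey1* (ENSMUSG00000040289, chr3:8663359-8667038), a relative of the Hes genes, was at 26.4 and 30.4 CPM among RGC-like cells and 9.45 and 11.2 in IPC-like cells, where it had fallen by 1.36 on the log2 scale (SE 0.29, adjusted p = 0.0089). In newborn neuron-like cells it stood at 12.4 and 19.7 CPM, above the IPC-like values in both replicates. That difference of 0.72 (SE 0.29) had an adjusted p of 0.0948, and 0.0115 with the replicate as a block. *Hey1* then fell to 3.91 and 6.40 CPM in projection neuron-like cells (log2 fold change -1.53, SE 0.28, adjusted p = 0.00637). Within the newborn neuron-like class it was uneven: cluster 16, led by *Synpr*, *Tac2* and *Rmst*, held *Hey1* at 25.9 and 28.2 CPM and cluster 9, led by *Tafa1* and *Tfap2d*, at 4.68 and 4.15 CPM.

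The Fringe genes *Mfng* and *Lfng* went opposite ways. *Mfng* (manic fringe; ENSMUSG00000018169, chr15:78755882-78773516) was at 20.1 and 18.2 CPM among RGC-like cells and 164.8 and 186.4 in IPC-like cells, which is 3.27 more on the log2 scale (SE 0.21, adjusted p = 4.4e-05). It remained at 48.9 and 76.2 CPM in newborn neuron-like cells, down by 1.39 (SE 0.20, adjusted p = 0.00123), and was nearly gone from projection neuron-like cells at 2.91 and 2.58 CPM, a fall of 4.36 on the log2 scale (SE 0.24, adjusted p = 5.03e-05). *Lfng* (lunatic fringe), whose upstream stretch is printed above, was at 15.6 and 13.0 CPM among RGC-like cells and 0.411 and 0.691 in IPC-like cells, where only 2 and 5 UMIs were counted. Its log2 fold change into IPC-like cells was -4.24 (SE 0.31, adjusted p = 7.03e-05), and the later classes, at 0.191 to 0.351 CPM, did not pass the threshold step by step (adjusted p = 0.459 and 0.679).

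**Figure D2:**
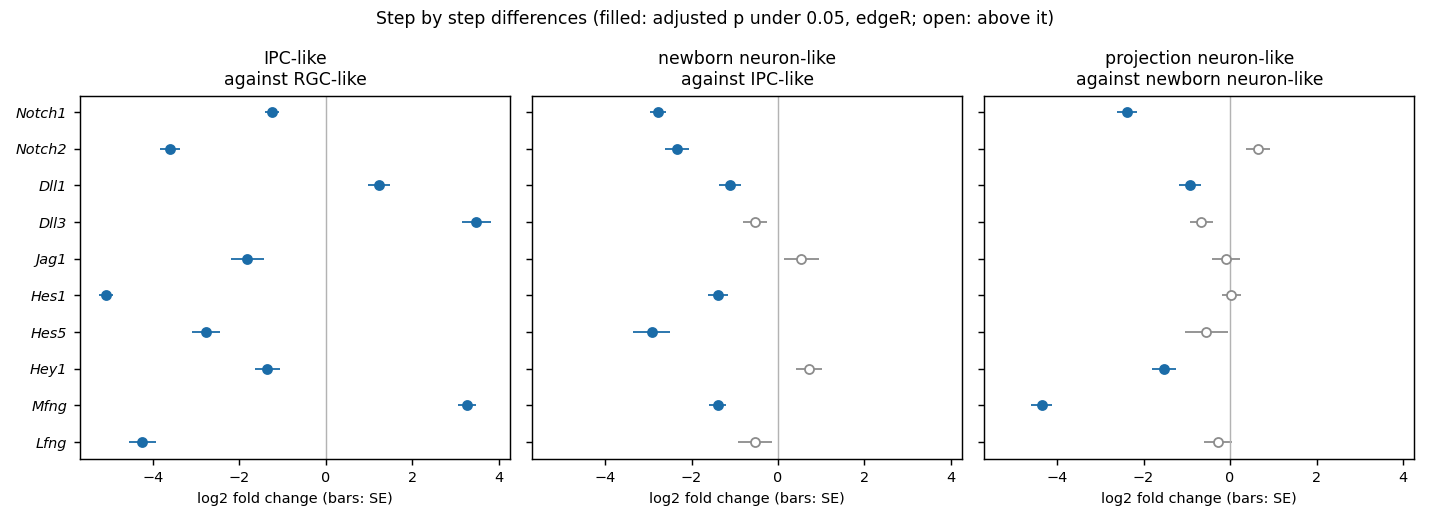
Log2 fold change of each of the 10 genes in the 3 successive steps from RGC-like to IPC-like, newborn neuron-like and projection neuron-like cells, with bars of 1 SE; filled points have an adjusted p under 0.05 (edgeR). All 10 genes are filled in the first step, 6 in the second and 4 in the third, and the 3 genes that rise in the first step are *Dll1*, *Dll3* and *Mfng*.

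After the first step no gene of the 10 was called higher as tested here, but *Hey1* was called higher in newborn neuron-like than in IPC-like cells under 6 of 10 alternatives, and *Notch2* in the last step with no filter on low counts (0.64, adjusted p = 0.0493). From IPC-like to newborn neuron-like cells 6 were lower (*Notch1*, *Notch2*, *Dll1*, *Hes5*, *Mfng* and, from few UMIs, *Hes1*), where 18.6% of all genes tested were called higher and 16.3% lower. From newborn neuron-like to projection neuron-like cells 4 fell (*Notch1*, *Dll1*, *Hey1* and *Mfng*), where 13.8% of all genes were called higher and 10.5% lower. From end to end, 9 of the 10 genes were lower and 1 was higher in projection neuron-like than in RGC-like cells, and 29.6% of all genes were called lower and 34.9% higher. The end-to-end difference of *Dll1*, -0.80 (SE 0.25, adjusted p = 0.0241), was the weakest of these 10 and passed the threshold in neither direction under 4 of the alternatives.

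The 55 further genes of the pathway were spread over both directions. Of 51 tested between IPC-like and RGC-like cells, 13 were higher and 13 lower, with a median log2 fold change of 0.13. The receptor gene *Notch3* was at 39.8 and 40.6 CPM in RGC-like and 6.37 and 5.12 in IPC-like cells (log2 fold change -2.71, adjusted p = 0.00023). *Dtx4*, a Deltex ubiquitin ligase gene, and *Hey2* fell with log2 fold changes of -3.43 and -2.14. *Hes6*, a Hes relative that opposes HES1, rose from 77.5 and 91.0 CPM to 292.8 and 399.2 (log2 fold change 2.12), in the same step in which *Hes1* and *Hes5* fell. *Dll4* also rose by 2.48, from 0.292 and 0.0465 CPM to 1.03 and 1.66, which rests on only 4 and 17 UMIs over both replicates.

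In the step to newborn neuron-like cells 10 of the 51 rose and 14 fell. The largest changes were those of *Tle2*, a Groucho-family corepressor gene (log2 fold change 3.1), *Dlk1* (-2.75), *Dtx1* (2.58), *Dlk2* (2.53) and *Dner* (2.52), the last 3 being a Deltex gene and genes of Delta-like or noncanonical ligands. Some of these rest on few UMIs over both replicates: in IPC-like cells 7 for *Tle2*, 2 for *Dlk2* and 31 for *Dlk1*. *Dlk1* was uneven there (mean 2.88 CPM, SD 2.32) and had 8 UMIs in newborn neuron-like cells. *Dner* went from 31.4 and 45.4 CPM to 239.5 and 179.3. In the step to projection neuron-like cells 5 rose and 10 fell, led by the coactivator gene *Maml3* (-2.44), the feedback inhibitor gene *Nrarp* (-2.28), *Neurl1b* (1.48), *Tle4* (1.45) and *Hey2* (-1.43, from 25 and 9 UMIs over both replicates).

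Outside the axis, the receptors, *Jag1* and *Hes1* were also high in vessel and covering cells, which are few: 17 and 40 endothelial-like, 39 and 43 pericyte-like and 42 and 125 meningeal-like cells. Endothelial-like cells held *Notch1* at 191.3 CPM in replicate 1 and 113.6 in replicate 3, *Jag1* at 119.6 and 51.1, *Hes1* at 134.5 and 49.7 and *Mfng* at 65.8 and 93.7, and had no UMI of *Hes5* or *Dll3*. In pericyte-like cells *Notch1* was at 162.2 and 123.9 CPM, *Jag1* at 71.2 and 88.3 and *Hes1* at 150.3 and 154.4. Meningeal-like cells held *Notch2* at 197.6 and 209.3 CPM, *Jag1* at 66.3 and 77.5 and *Hes1* at 66.3 and 93.7, with *Notch1* low at 13.3 and 11.2. *Jag1* was thus higher in each replicate of these 3 classes than in any class of the axis, and *Hes5* had no UMI in any of them. These differences were not tested.

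**Figure D3:**
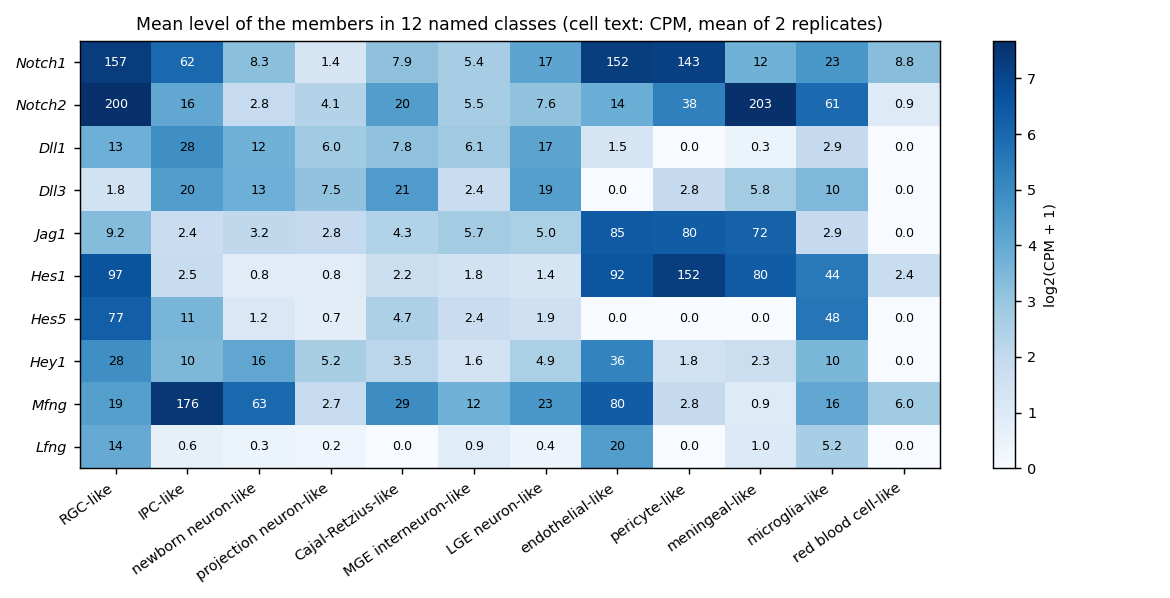
Mean level (CPM, mean of 2 replicates, printed in each cell) of the 10 genes (rows) in the 12 named cell classes (columns), with the colour giving log2(CPM + 1). RGC-like, endothelial-like, pericyte-like and meningeal-like cells hold high *Hes1* levels in both replicates and a high level of *Notch1* or *Notch2*. The *Hes1* mean of microglia-like cells comes from replicate 3 alone. IPC-like cells hold high *Mfng*, *Dll1* and *Dll3* levels, and red blood cell-like cells hold each gene at 8.8 or below.

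Interneuron-like cells and Cajal-Retzius-like cells held little of most of the genes. *Mfng* was at 26.4 and 32.2 CPM and *Dll3* at 18.7 and 23.3 in Cajal-Retzius-like cells, the class of early marginal-zone neurons. MGE interneuron-like cells held all 10 genes at 17.3 CPM or below. LGE neuron-like cells came almost wholly from replicate 1 (452 against 30 cells), so no spread is given for them. Microglia-like cells were uneven: *Hes1* had 0 UMIs in replicate 1 and 46 in replicate 3, while *Hes5* had 17 and 8. These counts come from only 51 and 85 cells, with a median of 3063 and 3545 UMIs per cell. Red blood cell-like cells, which should lack these genes, held 0 to 4 UMIs of each gene in a replicate. A cluster left unnamed, led by *Ttr*, *Htr2c* and *Rspo2* with 18 and 129 cells, held *Notch2* at 243.8 and 343.0 CPM, *Hes1* at 275.6 and 145.2 and *Hes5* at 355.1 and 82.8.

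The share of cells with a UMI followed the same order once each cell was thinned to 3000 UMIs. *Notch1* was detected in 40.0% of RGC-like cells in replicate 1 and 35.3% in replicate 3 and *Notch2* in 42.1% and 38.6%, while *Hes1* was detected in 21.2% and 23.1%. *Mfng* was found in 42.0% and 40.5% of IPC-like cells and in 5.56% and 5.43% of RGC-like cells. *Dll1* was found in 8.92% and 8.73% of IPC-like and in 4.34% and 4.24% of RGC-like cells. Without thinning the shares were higher, at 83.4% and 77.3% of RGC-like cells for *Notch1*, 81.1% and 75.3% for *Notch2*, 55.9% and 55.0% for *Hes1*, 77.0% and 79.2% of IPC-like cells for *Mfng*, and 23.7% and 22.3% of IPC-like and 12.02% and 10.1% of RGC-like cells for *Dll1*. At 3000 UMIs red blood cell-like cells gave 4.26% and 1.64% for *Notch1* and 2.13% and 1.64% for *Hes1*, and none for the other 8 genes, where 0 of 47 and 61 cells allows a share of up to 6.38% and 4.92%. The *Hes1* shares of IPC-like cells, 1.17% and 0.59%, lay at or below that level, which so few red blood cell-like cells set only loosely.

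At 3000 UMIs, 65.0% (95% Wilson interval 61.5 to 68.4) of RGC-like cells in replicate 1 and 60.3% (57.9 to 62.6) in replicate 3 held a UMI of *Notch1* or *Notch2*, against 19.0% and 21.0% of IPC-like cells. A UMI of *Hes1*, *Hes5* or *Hey1* was found in 40.8% and 40.2% of RGC-like cells and in 6.81% and 5.47% of IPC-like cells. A ligand UMI (*Dll1*, *Dll3* or *Jag1*) was found in 8.96% and 6.45% of RGC-like, 13.8% and 15.2% of IPC-like, 7.59% and 10.1% of newborn neuron-like and 4.19% and 4.22% of projection neuron-like cells. A share of 2.99% (1.98 to 4.48) and 1.37% (0.917 to 2.05) of RGC-like cells held both a ligand UMI and a Hes or Hey UMI. The product of the separate shares was 3.66% and 2.59%, inside the interval in replicate 1 and above it in replicate 3. In IPC-like cells 0.469% and 0.888% held both, beside products of 0.943% and 0.834%, in newborn neuron-like cells 0.320% and 0.838%, beside 0.261% and 0.620%, and in projection neuron-like cells 0.127% and 0.234%, beside 0.0772% and 0.114%. Those 6 products lay inside the intervals of the observed shares. Intervals cover counting error alone, and at this depth a cell without a UMI may still carry the transcript.

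Within RGC-like cells, the genes also differed by called phase of the cell cycle. The phase came from 43 S genes and 54 G2M genes scored on cells thinned to 3000 UMIs, which left out 20 and 39 shallower cells and put 240 and 567 cells in G1, 206 and 490 in S and 291 and 618 in G2M. *Dll1* was at 31.4 CPM in replicate 1 and 33.6 in replicate 3 in G1, at 4.55 and 5.09 in S and at 7.60 and 5.59 in G2M. The fall from G1 was 2.62 in S (SE 0.22, adjusted p = 0.000293) and 2.26 in G2M (SE 0.20, adjusted p = 0.000345) on the log2 scale, and the phases did not overlap between replicates. *Mfng* moved the same way, from 50.5 and 42.4 CPM in G1 to 10.5 and 10.5 in S and 9.55 and 8.99 in G2M. Its log2 fold changes were -2.06 (SE 0.16, adjusted p = 0.000195) and -2.26 (SE 0.15, adjusted p = 8.13e-05).

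The receptor gene *Notch2* went the other way, from 147.3 and 140.8 CPM in G1 to 222.1 and 185.0 in S and 262.4 and 208.9 in G2M. It was higher in S by 0.52 (SE 0.14, adjusted p = 0.0494), a call lost under 8 alternatives, and in G2M by 0.72 (SE 0.14, adjusted p = 0.0164), lost under 3. *Lfng* was at 8.41 and 10.0 CPM in G1 and at 20.6 and 14.8 in G2M (log2 fold change 0.88, SE 0.22, adjusted p = 0.0426, lost under 7 alternatives). *Notch1*, *Hes5* and *Jag1* did not pass the threshold in either comparison (*Notch1* by 0.00, SE 0.14, in S and 0.15, SE 0.14, in G2M). *Dll3* stood at 3.44 and 3.87 CPM in G1 and 0.868 and 1.10 in G2M with an adjusted p of 0.0513.

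In all, 1 of the 10 genes was called higher and 2 lower in S than in G1, where 8.79% of 12912 genes were called higher and 4.84% lower, and 2 were higher and 2 lower in G2M, where 7.85% and 4.7% were. With the replicate as a block the counts were 6 for S and 7 for G2M, since *Hey1*, *Dll3* and *Hes1* were added. Of the further pathway genes *Hes6* fell with *Dll1* and *Mfng* (log2 fold changes -1.85 in S and -1.72 in G2M), *Maml3* fell in both, *Mib1* in S, and *Nrarp* rose in both (0.51 and 0.77), with *Neurl1b* (3.28) and *Hdac1* (0.45) higher in G2M. The IPC marker list moved with *Dll1* and *Mfng*: its summed level in RGC-like cells was 1049 and 854 CPM in G1, 154 and 135 in S and 208 and 206 in G2M, with none of its 8 markers at 0. The neuron lists were also highest in G1: the newborn neuron list summed to 434 and 143 CPM in G1, 230 and 99.0 in S and 206 and 89.6 in G2M, and the projection neuron list to 775 and 688, 516 and 492, and 490 and 437. The RGC list ranged from 5382 to 8026 CPM over the phases and replicates. The part of these markers in the phase differences was not tested.

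**Figure D4:**
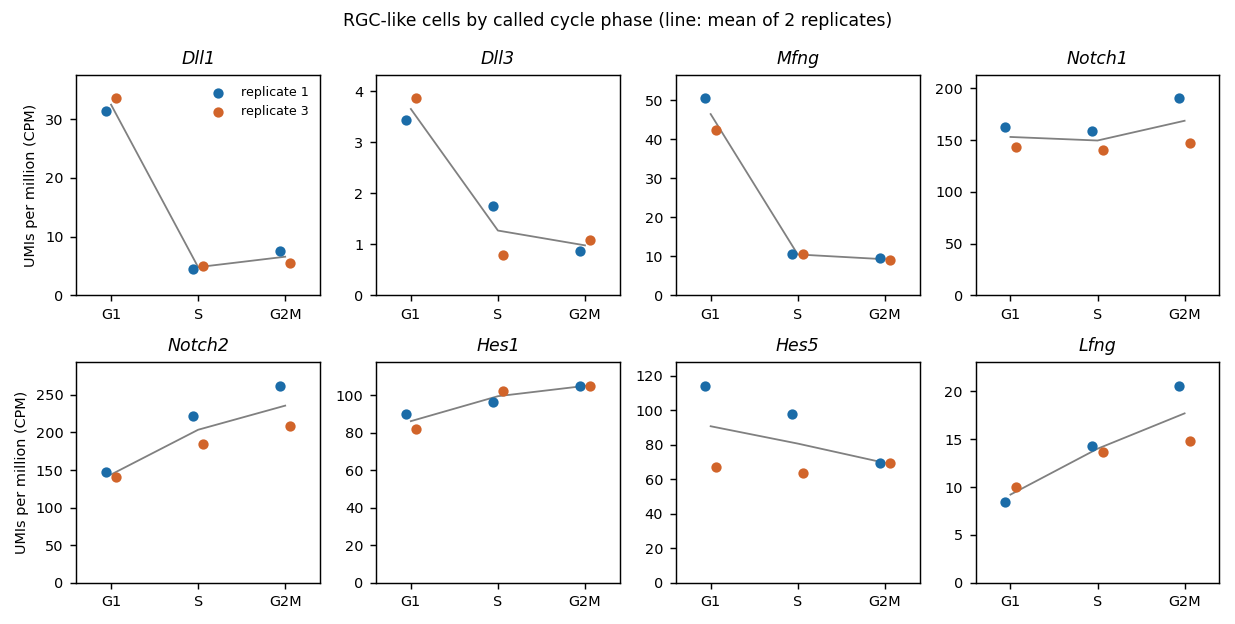
Level of *Dll1*, *Dll3*, *Mfng*, *Notch1*, *Notch2*, *Hes1*, *Hes5* and *Lfng* (CPM, linear axis from 0) in RGC-like cells called G1, S or G2M, with 1 point per replicate and a line through the mean of 2. *Jag1* and *Hey1* are not drawn. *Dll1* and *Mfng* are high in G1 and low in S and G2M in both replicates, and *Notch2* is lowest in G1.

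RGC-like cells with a *Dll1* UMI differed from those without in 3 of the genes: *Mfng* was higher and *Notch2* and *Hes1* were lower. Each cell was thinned to 5000 UMIs, after which 41 of 719 cells in replicate 1 and 85 of 1585 in replicate 3 held a *Dll1* UMI. *Mfng* was at 43.9 and 89.4 CPM with and 23.3 and 14.3 without (log2 fold change 1.99, SE 0.38, adjusted p = 0.032). *Notch2* was at 78.1 and 73.0 CPM with and 212.4 and 179.3 without (-1.37, SE 0.20, adjusted p = 0.013). *Hes1*, from 5 and 18 UMIs, was at 24.4 and 42.4 CPM with and 92.6 and 99.7 without (-1.39, SE 0.26, adjusted p = 0.0304). The 2 sides did not overlap for these 3 genes, which carries little weight with 2 values per side. The share of all genes without overlap was not worked out here either.

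*Hes5* was at 39.0 and 42.4 CPM with and 95.6 and 71.1 without a *Dll1* UMI (-0.98, SE 0.29, adjusted p = 0.128), and *Hey1* at 14.6 and 4.71 against 24.2 and 30.5 (-1.71, SE 0.51, adjusted p = 0.132). Both passed with the replicate as a block (adjusted p = 0.0213 and 0.0291). *Notch1* was at 185.4 and 141.2 CPM with and 164.3 and 141.6 without, or 0.06 on the log2 scale (SE 0.18, adjusted p = 0.928). *Jag1* and *Lfng* rested on 0 to 5 UMIs on the side with *Dll1* and did not pass the threshold. *Dll3* was too low to be tested. Of the 8 genes tested 1 was higher and 2 lower, where 1.28% and 1.44% of 10496 genes were called. The 3 calls were sensitive to the cells entered and their classing: with predicted doublets kept none of the 8 passed, and under 6 other alternatives *Mfng* alone did.

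Genes beyond the 10 showed what else set these cells apart. Among the further pathway genes *Hes6* (1.96) and *Maml3* (0.86) were higher. Of the 8 IPC markers 7 were higher, led by *Gadd45g* (log2 fold change 2.84), *Neurog1* (2.69) and *Eomes* (2.57), and the list summed to 1776 and 1812 CPM with and 380 and 317 without a *Dll1* UMI. Of the 10 RGC markers *Nes* (-0.82) and *Aldoc* (-1.09) were lower, and the list summed to 5678 and 4066 CPM with and 8071 and 6255 without. Called G1 cells made up 70.7% and 77.6% of the cells with a *Dll1* UMI and 29.5% and 30.6% of those without. The part of the marker lists in the difference was not tested, and with the phase as a covariate the same 3 genes were called (*Mfng* 1.36, *Notch2* -1.16, *Hes1* -1.29) of 6 that could be tested. That fit rests on few cycling cells, since the side with *Dll1* held 4 and 5 cells in S and 8 and 14 in G2M.

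By fold change the genes that stood apart most in this split were *Rbfox3* (2.97), *Ebf3* (3.04), *Pole* (-4.12), *Recql* and *Mcm8*. *Rbfox3* went from 24.5 and 16.4 CPM without to 141.5 and 167.1 with a *Dll1* UMI. *Ebf3*, which is also in the Cajal-Retzius marker list, went from 2.95 and 1.33 to 19.5 and 21.2 CPM. *Pole* went from 44.0 and 35.5 to 4.88 and 0 CPM. *Recql* and *Mcm8* had no UMI in the cells that held *Dll1*. Apart from *Rbfox3*, these levels rest on few or no UMIs in those cells. In the cells without, *Recql* was at 21.5 and 24.1 CPM and *Mcm8* at 16.8 in replicate 1. *Pole*, *Recql* and *Mcm8* act in DNA replication and repair, and *Rbfox3* encodes the neuronal antigen NeuN. The cells with a *Dll1* UMI were unequally spread over the 4 RGC-like clusters. They made up 8.39% and 7.22% of cluster 4, led by *Gna14* and *Tshr*, and 7.95% and 9.43% of cluster 12, led by *Mybpc1*. In cluster 8, led by histone and mitotic genes, they were 1.65% and 1.94%, and in cluster 15, led by *Cenpa* and *Cdc20*, 5.49% and 1.16%.

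**Figure D5:**
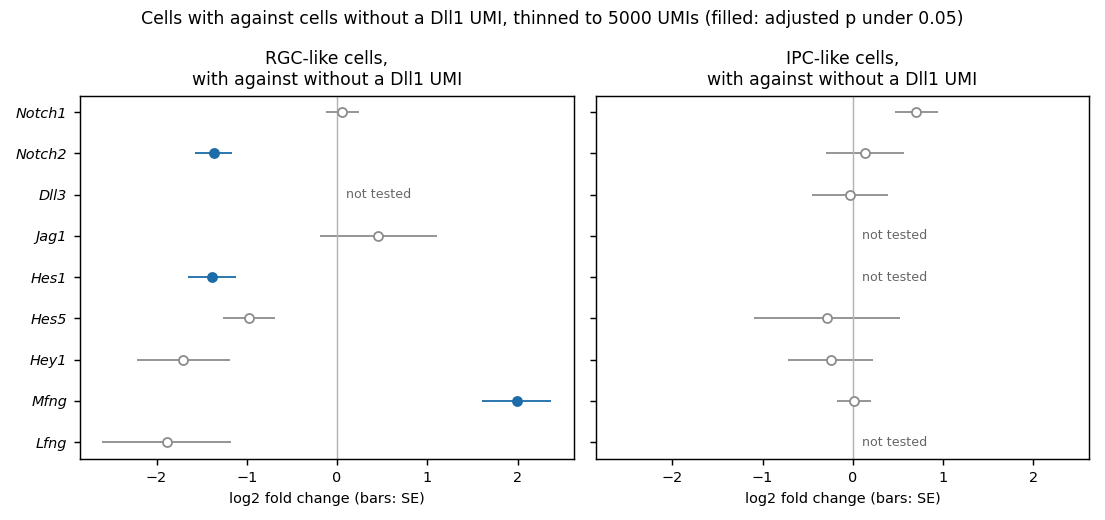
Log2 fold change (with bars of 1 SE) of the other tested genes of the 10 between cells with and without a *Dll1* UMI, in RGC-like and in IPC-like cells thinned to 5000 UMIs; filled points have an adjusted p under 0.05 (edgeR). In RGC-like cells *Mfng* is filled and higher and *Notch2* and *Hes1* are filled and lower, and no point is filled in IPC-like cells.

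In IPC-like cells the same split gave no call. Of the cells, 41 of 415 in replicate 1 and 84 of 625 in replicate 3 held a *Dll1* UMI, and 6 of the 10 genes could be tested. *Mfng* was at 165.9 and 188.1 CPM with and 159.4 and 197.4 without (log2 fold change 0.01, SE 0.19, adjusted p = 0.998). *Notch1* was at 73.2 and 100.02 CPM with and 48.7 and 60.6 without (0.70, SE 0.24, adjusted p = 0.693). None of 9167 genes passed in edgeR (0% higher and 0% lower) and none in DESeq2. An unadjusted p under 0.05 was found for 602 genes in edgeR, *Notch1* alone of the 6 tested, and for 134 genes, none of the 10, in DESeq2. With no difference at all, a share of about 0.05 of the genes would fall under that value. The difference between the classes was tested as an interaction, added after the data were seen, and none of 9 genes of the 10 that could be tested passed (*Mfng* -1.998, SE 0.42, adjusted p = 0.0596), where 0.499% of 10219 genes did.

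Genes outside the pathway list whose levels followed each of the 10 most closely were ranked by Pearson r of log2(CPM + 1) over 22 sums of 11 classes, a description over sums that share 2 libraries. *Mfng* was followed most closely by *Eomes* (r = 0.90), *Neurod4* and *Btbd17*, and *Hes5* by *C1qtnf9* (r = 0.90), *Hopx* and *Rhcg*. *Hes1* was closest to *Axl* (r = 0.94), *Ccn1* and *Ajuba*, and *Jag1* to *Spry1* (r = 0.95), *S1pr2* and *Fosb*. *Notch1* ran with *Lbr* (r = 0.91), *Ercc6l* and *Ckap2*, and *Notch2* with *Tmem97* (r = 0.94), *Siva1* and *Eepd1*. For *Dll1* the nearest were *Slc16a14* (r = 0.92), *Miat* and *Mir9-3hg*, for *Dll3* *Cyth2* (r = 0.84), *Ube2b* and *Rnf41*, for *Hey1* *Shisa2* (r = 0.87), *Insig1* and *Gm42047*, and for *Lfng* *Slc14a2* (r = 0.90), *A330048O09Rik* and *9430041J12Rik*. Among the 10 genes themselves r was 0.82 for *Hes5* and *Lfng*, 0.79 for *Hes1* and *Jag1* and 0.77 for *Dll1* and *Mfng*, and 0.10 for *Hes1* and *Hes5*. Pericyte-like and meningeal-like cells, which held *Hes1* but no *Hes5* UMI, were among the 11 classes, and endothelial-like cells were not. The part of any class in that low r was not tested.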

How the data were processed

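The deposited files hold raw UMI counts per gene and barcode, which the authors made with Cell Ranger 7.0.0 on mm10 (submitters' processing notes) from 10x 3′ v3.1 libraries; the gene annotation is not given in the sources used here. A cell was used if it had at least 1500 and at most 60000 UMIs, less than 10% of them mitochondrial (710 and 1387 barcodes failed), and 304 (4.93%) and 629 (7.09%) predicted doublets were removed. Cells were clustered in Scanpy 1.11.5 (2000 variable genes without the pathway genes, 30 components, 15 neighbours, Leiden resolution 1.0, both libraries together with no batch correction) and clusters were named from marker lists. Counts were summed per class and replicate and tested in edgeR 4.0.16 (R 4.3.3; quasi-likelihood test, TMM, filterByExpr, prior count 2, two-sided, adjusted p threshold 0.05); DESeq2 1.42.0, library sizes without TMM, no filter on low counts, a replicate block, a stricter filter on cells (at least 3000 UMIs, under 5% mitochondrial), predicted doublets kept, Leiden resolution 0.5 or 2.0, pathway genes kept for clustering and other thinning depths were alternatives. Splits by *Dll1* left *Dll1* out of the table tested, and phase comparisons left out the phase genes. The sums of a replicate come from the same library, and their deviations from the class means correlated by 0.13 to 0.29 between classes of the axis, 0.30 to 0.40 between phases, 0.19 in the RGC-like and 0.11 in the IPC-like *Dll1* split, so the replicate number pairs them; blocked values stand where they change a call. The 2 libraries differed beyond sampling noise. The tests were tried on simulated counts with known changes.

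The 10 genes and all lists were chosen with earlier results of these data known. All 10 are named; of the further pathway genes, at most the 5 with the largest fold change past the threshold and the same direction in both replicates, per comparison (a gene that the rule would name is not reported here); for likeness, the 3 genes with the highest r; in the *Dll1* splits, the 5 genes with the largest fold change. For the phase comparisons and clusters other names only identify groups and were chosen after their values were seen. Promoters are from RefSeq on GRCm38.p6.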

Additional observations from a re-analysis of the deposited data

How the results depend on the processing

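Every call among the 10 genes in the IPC-like against RGC-like step was the same under 9 of 10 tested alternatives; with predicted doublets kept *Jag1* (-0.94) missed the threshold and 6 more fold changes moved by over 1.5 times, as given beside them. With the stricter filter that step was -5.84 for *Hes1*, -5.01 for *Lfng*, -3.57 for *Hes5* and 4.14 for *Dll3*, *Hes1* was -4.49 at resolution 0.5 and -4.48 with pathway genes kept, and *Mfng* was 3.90 without the unevenly drawn clusters. In the next step doublets kept gave -4.51 for *Notch1*, -3.22 for *Notch2*, -3.53 for *Hes5* and -1.70 for *Dll1*, and in the last -2.78 for *Mfng*; *Hes5* in the middle step was -2.11 with the stricter filter. Counts of genes called in the later steps, among the 10 or over all genes, moved by at most 1.5 times. Of 936 recomputed fold changes, 795 counted as unchanged, 33 newly passed the threshold, 40 no longer did, 67 moved by more than their error and 1 reversed. A called gene was unchanged if still called in the same direction, and an uncalled gene if it stayed uncalled within 1 SE. Fold changes from 1 replicate alone have no test. They were set against the spread of the 2 replicates. The fit to both lies near the middle of the 2 values, so by that measure most stay unchanged by construction and add little to the count. The reversal was *Dll1* in projection neuron-like against RGC-like cells, at 0.069 with predicted doublets kept. It was -0.11, -0.55 and -0.41, all short of the threshold, with the stricter filter on cells, with pathway genes kept for clustering and without the unevenly drawn clusters (an alternative chosen after seeing the data). The cause was not tested. With the stricter filter *Dll1* (-0.36) and *Hes1* (-0.77) missed the threshold in newborn neuron-like against IPC-like cells, and with doublets kept *Notch1* (-0.22) did in the last step. The replicate block gave 6 genes in S and 7 in G2M, in place of 3 and 4, and 5 in the RGC-like *Dll1* split, in place of 3, and it changed no call beyond those given beside the results. In G2M, 2 genes passed with doublets kept and 2 with the stricter filter. In the RGC-like *Dll1* split 5 passed with no filter on low counts, 0 with doublets kept, and 1, *Mfng*, with the stricter filter, at resolution 0.5, with pathway genes kept, without the uneven clusters, and thinned to 3000 or 8000 UMIs; there all genes called numbered 285 as reported and from 3 (doublets kept) to 851 (block) otherwise. Over all genes, S against G1 gave 1760 calls, 4043 with the block and 2747 with no filter, and G2M against G1 gave 1620, 4001 and 2679. The IPC-like split gave 0 calls, 80 with the block, 54 with no filter and 161 with doublets kept, none of them among the 10 genes. With 1 replicate left out there is no test; the values are given per replicate. Among the 10 genes depth limits *Lfng*, *Hes1* and *Jag1* most, with 2 to 19 UMIs each in the IPC-like sums.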
